A study of Rattus norvegicus with 6 samples.

Results

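The vascular endothelial growth factor (VEGF) family ligands Vegfa, Vegfb, Vegfc and Pgf, the platelet-derived growth factor (PDGF) ligands Pdgfa, Pdgfb, Pdgfc and Pdgfd, and the PDGF receptors Pdgfra and Pdgfrb were examined in rat lung. These 10 genes were taken by symbol from the deposited table of linear transcripts, in which 21210 gene names had at least 1 annotated transcript. They held 70 of its 70376 transcripts. The study compared lungs of Sprague-Dawley rats given bleomycin with lungs of controls given saline, 3 rats in each group. The rats were 7 weeks old at the start, bleomycin was given once into the trachea at 7 mg/kg, and lungs were taken on day 28. Each rat gave 1 library of total RNA depleted of ribosomal RNA. Bleomycin injures the lung and leads to pulmonary fibrosis (PF), in which collagen is laid down between the alveoli. The treated rats are called model here and the saline rats control. The samples were whole lung tissue, so fewer cells of a type and less RNA per cell cannot be told apart. The libraries were of like depth, with 35778631 to 41112682 estimated reads on transcripts. Transcripts named as small RNAs held between 34.2% and 46.4% of the summed FPKM of a library. This is a share of summed FPKM and not of reads. It varied between libraries and enters values rescaled to a common FPKM total (TPM).

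VEGF family ligands are secreted proteins that bind receptor tyrosine kinases on endothelial cells. Vegfa drives the growth and permeability of blood vessels, Vegfc acts mainly on lymphatic vessels, Vegfb binds the receptor Flt1, and Pgf (placental growth factor) binds the same receptor. In the lung, alveolar epithelium is a well known source of Vegfa. PDGF ligands act as dimers on Pdgfra and Pdgfrb, receptors of fibroblasts, pericytes and smooth muscle, and are known as growth signals for these cells.

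The promoters of Vegfa and Pdgfra are shown because they belong to the ligand and the receptor with the highest levels, and those of Vegfb and its neighbour Dnajc4, a heat shock protein family member, because an assembled transcript joined these 2 genes. Sequences are from RefSeq (build GRCr8), which held a promoter entry for 9 of the 10 genes, and run from 250 bases before to 50 bases after the annotated start. Capitals mark GC boxes, GGGCGG read on either strand, the motif bound by Sp1 family factors. The Vegfa window lies at chr9:22452604-22452903 on the plus strand and holds 3 GC boxes. The Vegfb window at chr1:213607103-213607402 on the minus strand holds 4, of which 2 adjoin each other. The Dnajc4 window at chr1:213611515-213611814 on the minus strand holds 3. The Pdgfra window at chr14:33408467-33408766 on the minus strand holds 0.

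Vegfa: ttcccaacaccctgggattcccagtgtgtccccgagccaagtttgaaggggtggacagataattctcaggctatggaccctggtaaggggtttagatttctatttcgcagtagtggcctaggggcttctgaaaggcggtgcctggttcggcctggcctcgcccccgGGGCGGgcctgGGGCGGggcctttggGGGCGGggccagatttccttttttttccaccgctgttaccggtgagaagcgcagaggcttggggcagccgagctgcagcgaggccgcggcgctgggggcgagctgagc
Vegfb: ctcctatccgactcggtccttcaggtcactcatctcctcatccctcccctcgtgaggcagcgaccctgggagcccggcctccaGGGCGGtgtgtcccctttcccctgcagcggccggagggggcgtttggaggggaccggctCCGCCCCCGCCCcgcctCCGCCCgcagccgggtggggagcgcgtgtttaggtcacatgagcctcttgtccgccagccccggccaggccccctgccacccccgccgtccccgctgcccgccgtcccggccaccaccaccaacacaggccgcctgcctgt
Dnajc4: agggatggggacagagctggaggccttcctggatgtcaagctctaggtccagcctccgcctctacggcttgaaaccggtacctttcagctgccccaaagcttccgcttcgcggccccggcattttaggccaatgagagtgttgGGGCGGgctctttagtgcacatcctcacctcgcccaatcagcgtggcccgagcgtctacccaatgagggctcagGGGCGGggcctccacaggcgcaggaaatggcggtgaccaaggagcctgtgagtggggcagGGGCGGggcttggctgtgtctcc
Pdgfra: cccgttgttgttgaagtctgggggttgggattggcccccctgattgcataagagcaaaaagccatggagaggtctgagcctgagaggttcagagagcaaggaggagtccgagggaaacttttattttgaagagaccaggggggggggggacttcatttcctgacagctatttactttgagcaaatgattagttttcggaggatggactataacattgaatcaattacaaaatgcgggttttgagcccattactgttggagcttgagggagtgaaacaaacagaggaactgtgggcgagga

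Of all 33469 rat promoter windows of this length, 33.1% held at least 1 GC box and 8.97% held 3 or more. The second Vegfa entry held 0, as did Pdgfc, while Pdgfa, Pdgfb and Pdgfd held 1 each and Vegfc and Pgf held 2 each. The hypoxia response cores ACGTG and GCGTG were searched on either strand. Neither was in the 2 Vegfa windows, and sequence more than 250 bases before a start was not searched. ACGTG was found in Pdgfd, and GCGTG was found once each in Vegfb, Pgf and Pdgfd and 2 times in Pdgfb. Among all windows, 41.6% held at least 1 of these cores.

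The summed level of none of the 10 genes was called different between model and control lungs. A gene was called when the unadjusted limma p was at most 0.05 and the log2 ratio of group means was at least 1 in either direction. By that rule 0 of the 10 genes were called, beside 1.53% of the 19203 genes tested (0.687% higher and 0.838% lower in model lungs). At an unadjusted p of at most 0.05 the count was 0 of 10, beside 4.9% of all genes. With 1 lung left out it was 1 of 10 in 2 of the 6 fits, Pgf without model 2 (log2 fold change 0.23, adjusted p = 0.820, limma) and Pdgfd without model 3 (-0.41, adjusted p = 0.984). The 2 groups of 3 rats overlapped for each of the 10 genes, and among all genes 10.7% did not overlap (4.86% higher and 5.83% lower in model lungs). On the scale of log2(FPKM + 1), where FPKM is the number of fragments per kilobase of transcript scaled by the mapped fragments of the library, 4 genes lay above 0 and 6 below, with a median difference of -0.05, against -0.01 for all genes. Adjusted p values were between 0.934 and 0.997 (limma, Benjamini-Hochberg), and 0.0104% of all genes had an adjusted p below 0.05. No 95% interval on this scale reached beyond 0.70 in either direction. Adding 1 to the FPKM shrinks the differences of low genes, so a doubling of Pgf and a halving of Pdgfc lie inside these intervals. With a pseudocount of 0.1 the log2 fold change of Pgf was 0.34 in place of 0.13.

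**Figure D1:**
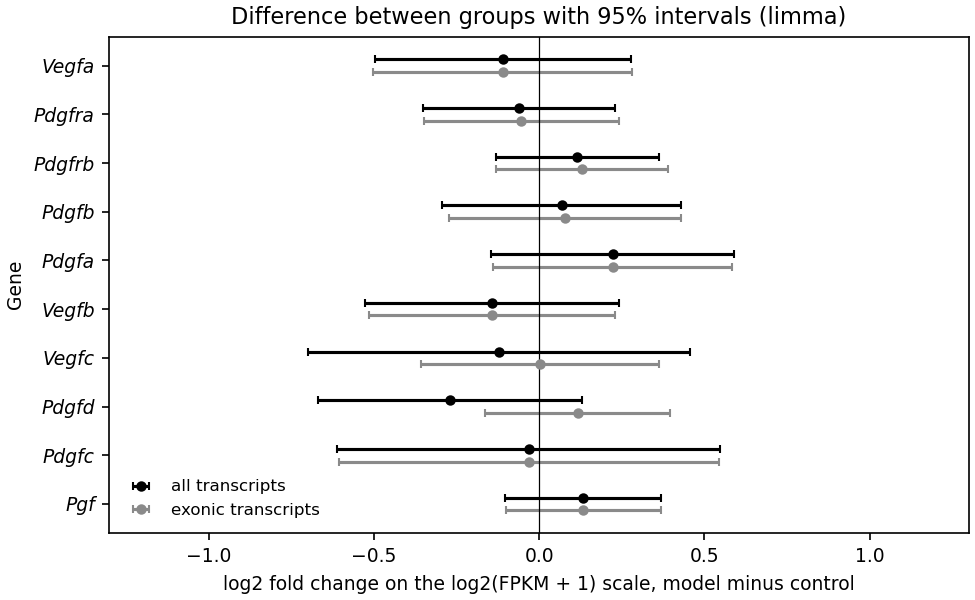
The log2 fold change of each gene (horizontal axis, model minus control, on the log2(FPKM + 1) scale) with its 95% interval from limma, n = 3 rats per group. Black marks sum all transcripts of a gene and grey marks only exonic transcripts. All 20 intervals cross 0. The scale shrinks the differences of low genes such as Pgf, Pdgfc and, by exonic transcripts, Pdgfd, so widths are not comparable with those of abundant genes.

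The genes differed widely in level. Exonic transcripts, meaning annotated transcripts and assembled ones that share a splice junction with them, numbered 43 of the 70. The others were 27 pieces within introns, antisense, overlapping or downstream of a gene. By summed exonic FPKM over the 6 lungs the order was Vegfa, Pdgfra, Pdgfrb, Pdgfb, Pdgfa, Vegfb, Vegfc, Pdgfd, Pdgfc and Pgf. Neighbours in that order were apart in all 6 lungs except Pdgfrb and Pdgfb, Pdgfa and Vegfb, and Pdgfd and Pdgfc, whose ranges overlapped. By the plain sum over all transcripts Vegfa lay at the 99.3rd percentile of the genes tested and Pgf at the 19.2nd.

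**Figure D2:**
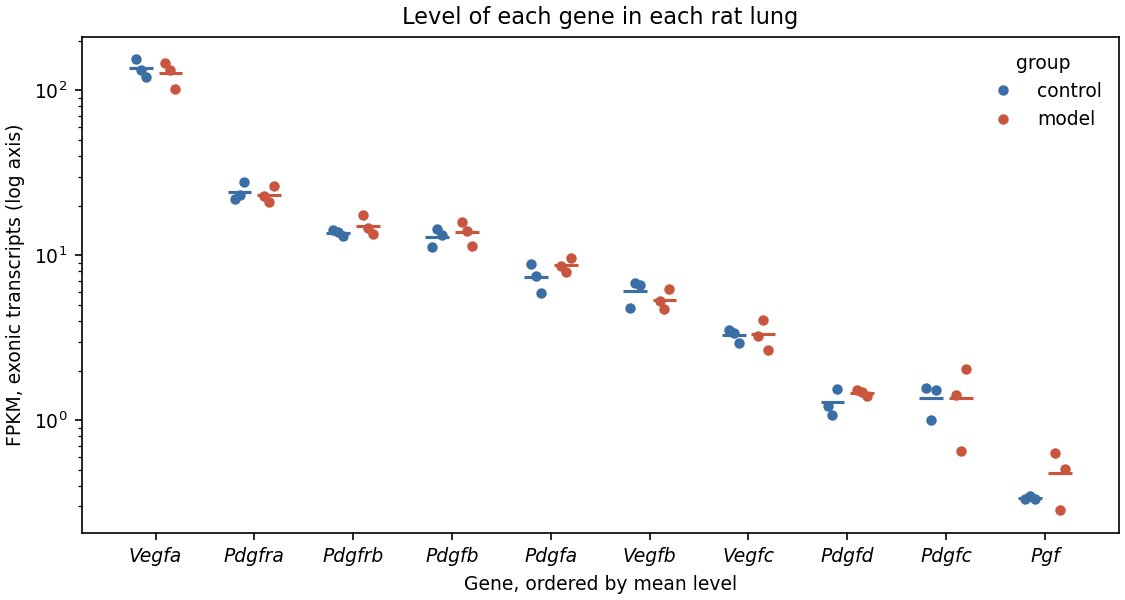
Summed FPKM of exonic transcripts of each gene (vertical log axis) in each of the 3 control lungs (blue) and 3 model lungs (red), with the group mean as a line. Vegfa lies between 102 and 154 FPKM and Pgf between 0.284 and 0.634, and the groups overlap for each gene.

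Vegfa, on chromosome 9 from 17340341 to 17355681 in the coordinates of the files, was by far the most abundant of the ligands. Its summed FPKM was 156, 136 and 122 in the control lungs and 149, 134 and 104 in the model lungs. The lowest value was that of model 3, and the groups overlapped. The means were 138 ± 17 and 129 ± 23.1 (SD, n = 3), with a log2 fold change of -0.11 (SE 0.16, adjusted p = 0.957, limma). Vegfa made up between 91.6% and 94.7% of the exonic FPKM of the 4 VEGF family ligands.

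Within Vegfa, the share of the longest annotated isoform was higher in each model lung than in any control lung. Over all genes, 9.82% of 22295 isoform shares of at least 10% likewise did not overlap between groups. That background also applies to the shares of Vegfb, Pdgfra and Pdgfrb given below. Isoforms of Vegfa differ by alternatively spliced exons that code for stretches binding heparin and the matrix, and the longer forms are held closer to the cell. The 4 annotated transcripts share both ends and differ in exons and length. The form with 8 exons (ENSRNOT00000026637, 3546 bases) had FPKM of 27.5, 20.3 and 23.8 in control and 30.1, 32.5 and 25.9 in model lungs. The form with 7 exons that is 72 bases shorter (ENSRNOT00000026559, 3474 bases) had 33.0, 30.8 and 30.9 in control and 31.8, 21.0 and 16.6 in model lungs. The 8-exon form was thus the less abundant of the pair in all 3 control lungs and the more abundant in model 2 and model 3, with model 1 near 1 to 1. The form with 6 exons (ENSRNOT00000044163, 3342 bases) had 12, 12 and 10.1 in control and 10.5, 7.53 and 6.60 in model lungs. A second 7-exon form (ENSRNOT00000042790, 3414 bases) was low, at 3.16, 3.50 and 2.0 in control and 5.18, 4.82 and 2.15 in model lungs.

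As transcripts, none of the 4 was called. The log2 fold change was 0.30 (SE 0.15) for the 8-exon form, -0.48 (SE 0.23) for the longer 7-exon form and -0.44 (SE 0.18) for the 6-exon form, each with an adjusted p of 0.945 (limma). As a share of all exonic Vegfa FPKM the 8-exon form held 17.6% ± 2.29 in control and 23.5% ± 2.63 in model lungs (SD, n = 3, exact permutation p = 0.1). The 6-exon form alone had an unadjusted p of at most 0.05. The ratio of the 8-exon to the longer 7-exon form, chosen after the values were seen and so given with no test, was 0.832, 0.658 and 0.770 in control and 0.946, 1.55 and 1.56 in model lungs. Among the 4 annotated forms the 8-exon form held 34.1% ± 3.22 in control and 46.2% ± 6.46 in model lungs (SD, n = 3), and the longer 7-exon form held 45.4% ± 1.51 and 35.1% ± 5.12. Together the 4 forms had 69.7 ± 5.17 FPKM in control and 64.8 ± 13.2 in model lungs, which overlapped. StringTie divides reads among overlapping transcripts, so these values are estimates that depend on each other. The most abundant assembled form of the gene, MSTRG.36474.1 with 6 exons and 6406 bases, held 22.4% ± 2.25 of the exonic FPKM in control and 22.1% ± 0.79 in model lungs.

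**Figure D3:**
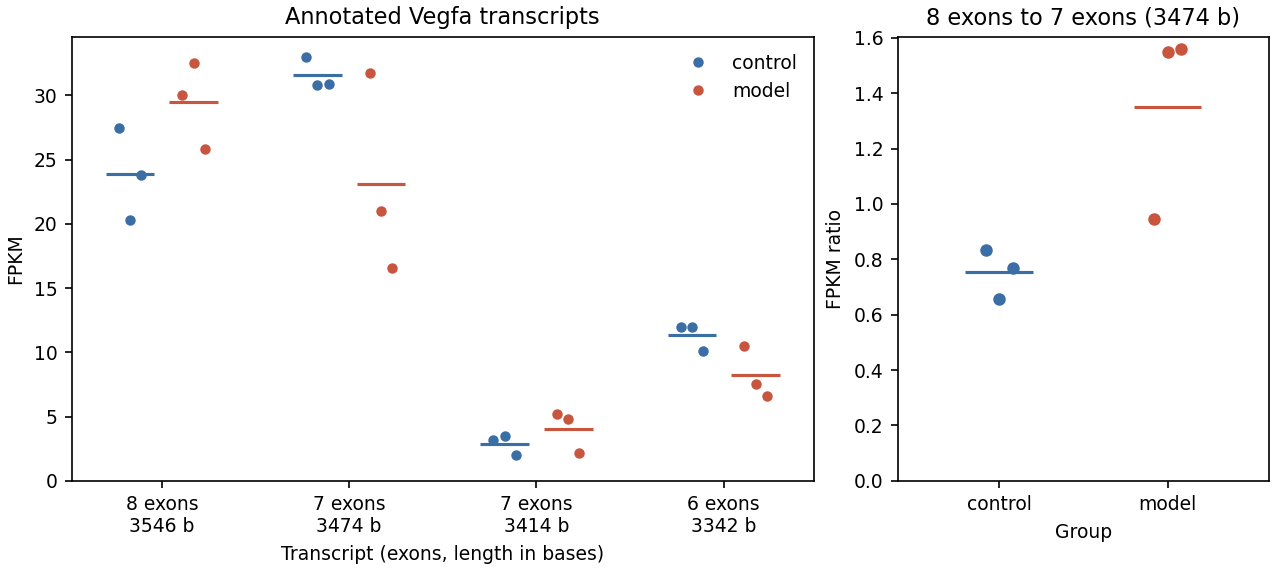
Left, FPKM of the 4 annotated Vegfa transcripts in each control (blue) and model (red) lung, with the group mean as a line. Right, the FPKM ratio of the 8-exon transcript to the 7-exon transcript of 3474 bases in the same lungs, which lies between 0.658 and 0.832 in control and between 0.946 and 1.56 in model lungs.

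Exonic transcripts of Vegfb lay on chromosome 1 from 222237091 to 222247066 on the minus strand, a span that takes in the neighbour Dnajc4. Vegfb codes for a ligand of the heart and of metabolic tissues and was far below Vegfa in these lungs. Its FPKM was 4.82, 6.79 and 6.61 in control and 5.25, 4.69 and 6.21 in model lungs. The groups overlapped, and the log2 fold change was -0.14 (SE 0.16, adjusted p = 0.945). That sum held 2 main transcripts that went opposite ways. MSTRG.3612.2, with 7 exons and covering Vegfb alone, had 2.59, 5.15 and 4.41 FPKM in control and 1.99, 1.46 and 2.42 in model lungs. It was called lower in model lungs, with a log2 fold change of -0.75 (SE 0.25, adjusted p = 0.945). MSTRG.3612.1, with 13 exons, spans Vegfb and Dnajc4, and had 2.18, 1.55 and 2.06 in control and 3.17, 3.06 and 3.61 in model lungs. Its log2 fold change was 0.55 (SE 0.14, adjusted p = 0.945), and it was not called because the ratio of means was below the threshold. The 3 model lungs all lay above the 3 control lungs.

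As assembled, this transcript is a read-through that begins upstream at Dnajc4, which lies before Vegfb on the same strand. The junction between the genes was not checked in reads, and whether the assembly joined 2 neighbouring genes was not tested. In RefSeq (GRCr8) 142 bases separate the genes, and the Vegfb promoter window shown above reaches 6 bases into Dnajc4. The read-through made up 45.3%, 22.9% and 31.2% of the exonic Vegfb FPKM in control lungs and 60.4%, 65.2% and 58.1% in model lungs. The difference of 28.2 percentage points had an exact permutation p of 0.1 (two-sided), the smallest that 3 lungs against 3 allow. Dnajc4 is not 1 of the 10 genes and was looked at after its values were seen. Its own transcripts summed to 2.60, 3.22 and 2.50 FPKM in control and 0.487, 0.261 and 0.270 in model lungs. It was called lower, with a log2 fold change of -1.49 (SE 0.13, adjusted p = 0.0882, limma), and was called under 16 of 17 alternative settings, the exception being annotated transcripts only, with an adjusted p between 0.0599 and 0.972 over the 17. With the transcript spanning both genes added, the sum was 4.79, 4.77 and 4.56 FPKM in control and 3.66, 3.32 and 3.88 in model lungs, or 4.71 ± 0.13 and 3.62 ± 0.28 (SD, n = 3). The groups did not overlap in either sum. The difference of means was -2.43 FPKM for the Dnajc4 transcripts alone and -1.09 with the spanning transcript added. How reads were divided among the transcripts of the locus was not tested, for Dnajc4 or for Vegfb alone.

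The annotated Vegfb transcript itself, ENSRNOT00000050891, was between 0.045 and 0.179 FPKM in the 6 lungs. Over the whole locus the estimated reads were 509, 566 and 639 in control and 528, 435 and 573 in model lungs, which overlapped, while the summed FPKM was 7.42, 10.0 and 9.11 in control and 5.74, 4.95 and 6.48 in model lungs. As a share of the estimated reads of exonic Vegfb transcripts, the read-through held 48.1% in control and 74.8% in model lungs by group means, and the groups did not overlap.

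**Figure D4:**
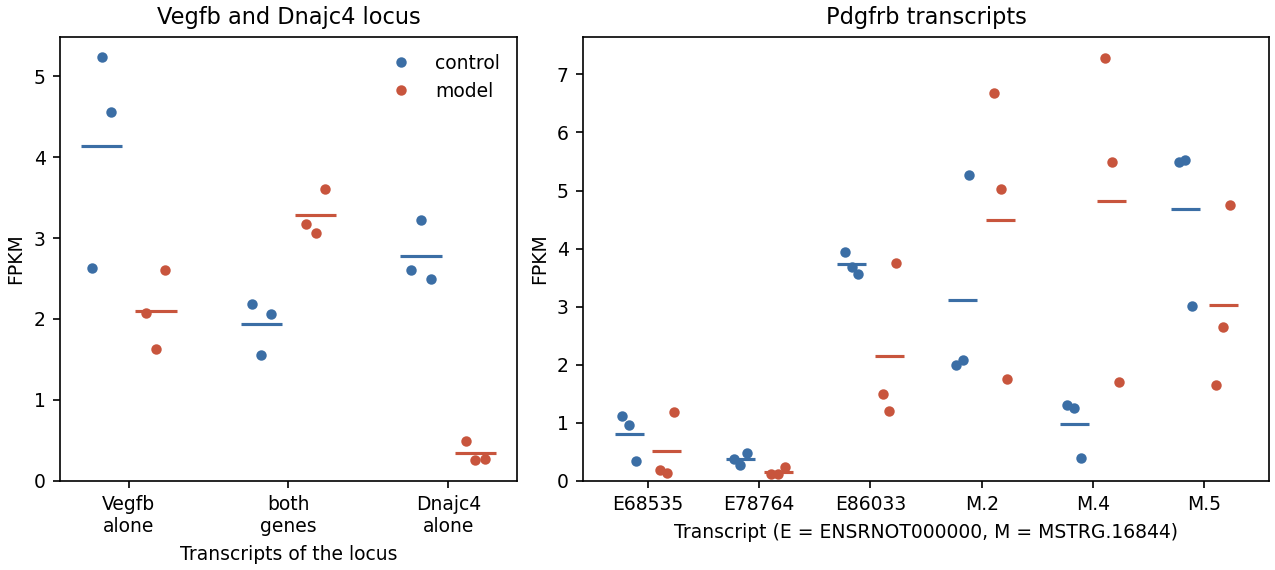
Left, FPKM of transcripts covering Vegfb alone, both genes, or Dnajc4 alone. Right, FPKM of the 6 exonic Pdgfrb transcripts. Points are control (blue) and model (red) lungs and lines are group means. The read-through and MSTRG.16844.4 (M.4) are higher in every model lung, and Dnajc4 alone is between 0.261 and 0.487 FPKM in model lungs.

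Vegfc, on chromosome 16 from 40440207 to 40555576 on the minus strand, was not called. Its FPKM was 11.3, 14.9 and 15.1 in control and 12.9, 17.2 and 8.68 in model lungs, with model 2 the highest and model 3 the lowest. Its log2 fold change was -0.12 (SE 0.24, adjusted p = 0.970). Between 69.1% and 80.6% of that sum came from 4 pieces within introns. The only exonic transcript, ENSRNOT00000015529, had 3.50, 3.39 and 2.94 in control and 3.23, 4.06 and 2.66 in model lungs, with a log2 fold change of 0.00 (SE 0.15).

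Pgf, on chromosome 6 from 108994018 to 109004598 on the minus strand, was the lowest of the 10 genes. Its FPKM was 0.334, 0.349 and 0.331 in control and 0.634, 0.284 and 0.507 in model lungs. Model 1 and model 3 lay above the controls and model 2 below them. This gave a log2 fold change of 0.13 (SE 0.10, adjusted p = 0.934), and the estimated reads per lung lay between 19.5 and 48.0.

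Pdgfa, on chromosome 12 from 17730954 to 17755593 on the plus strand, codes for the A chain, which acts mainly on Pdgfra. Its FPKM was 8.84, 7.49 and 5.89 in control and 8.56, 7.96 and 9.68 in model lungs. Control 3 was the lowest and model 3 the highest. On the log2 scale the difference was 0.22 (SE 0.15, adjusted p = 0.934). Its transcripts varied from rat to rat in both groups. MSTRG.8794.1 was at 0 in control 1, control 3 and model 1 and had 3.88 FPKM in control 2, 2.86 in model 2 and 5.04 in model 3. The longer MSTRG.8794.2 had 6.16, 2.33 and 5.08 in control and 5.37, 3.19 and 1.86 in model lungs. The 3 lungs with MSTRG.8794.1 were those with the least of MSTRG.8794.2.

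Pdgfb, on chromosome 7 from 121210513 to 121239270 on the minus strand, codes for the B chain, which binds both receptors and recruits pericytes to vessels. Its FPKM was 11.6, 14.6 and 13.8 in control and 16.2, 14.8 and 11.3 in model lungs. Model 1 was the highest and model 3 the lowest. The log2 fold change was 0.07 (SE 0.15, adjusted p = 0.972). Its leading transcript, MSTRG.33456.7, had 4.40, 4.55 and 4.58 in control and 5.37, 5.14 and 4.69 in model lungs, a log2 fold change of 0.14 (adjusted p = 0.945, limma). Those groups were apart by a small margin. Pdgfb held between 46.3% and 60.0% of the exonic FPKM of the 4 PDGF ligands.

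Pdgfc and Pdgfd code for ligands that are cut by proteases before they bind. Pdgfc, on chromosome 2 from 179952227 to 180128283 on the plus strand, had 1.57, 1.01 and 1.52 FPKM in control and 1.43, 0.647 and 2.04 in model lungs. Model 2 was the lowest and model 3 the highest of all 6. This gave a log2 fold change of -0.03 (SE 0.24, adjusted p = 0.997). Estimated reads lay between 47.8 and 163 per lung.

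Pdgfd, on chromosome 8 from 4440876 to 4669014 on the plus strand, ranked 2nd of the 10 genes by the plain sum and 8th by exonic transcripts. The sum was 27.0, 31.1 and 30.4 FPKM in control and 18.7, 25.8 and 29.6 in model lungs. Model 1 and model 2 were the lowest, and model 3 lay among the controls. On the log2 scale the difference was -0.27 (SE 0.17, adjusted p = 0.934), the lowest of the 10. Between 91.9% and 96.6% of the sum came from 19 pieces of 223 to 5612 bases within introns. Exonic FPKM was 1.22, 1.07 and 1.55 in control and 1.51, 1.49 and 1.40 in model lungs, with a log2 fold change of 0.12 (SE 0.12). The sign thus depended on whether intronic pieces were counted.

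Of the 19 intronic pieces 16 were lower and 3 higher in model lungs, which is 84.2% lower, beside 60.8% of the 9704 intronic transcripts tested. None had an unadjusted p of at most 0.05, beside 4.53% of all transcripts. The median log2 fold change was -0.20, beside -0.06 over all intronic transcripts. Pieces of 1 gene may come from the same unspliced RNA, which was not tested, so they cannot be counted as independent. The ratio of the mean intronic to the exonic level was 1.14, 1.51 and 1.0 in control and 0.620, 0.800 and 1.11 in model lungs, which overlapped.

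**Figure D5:**
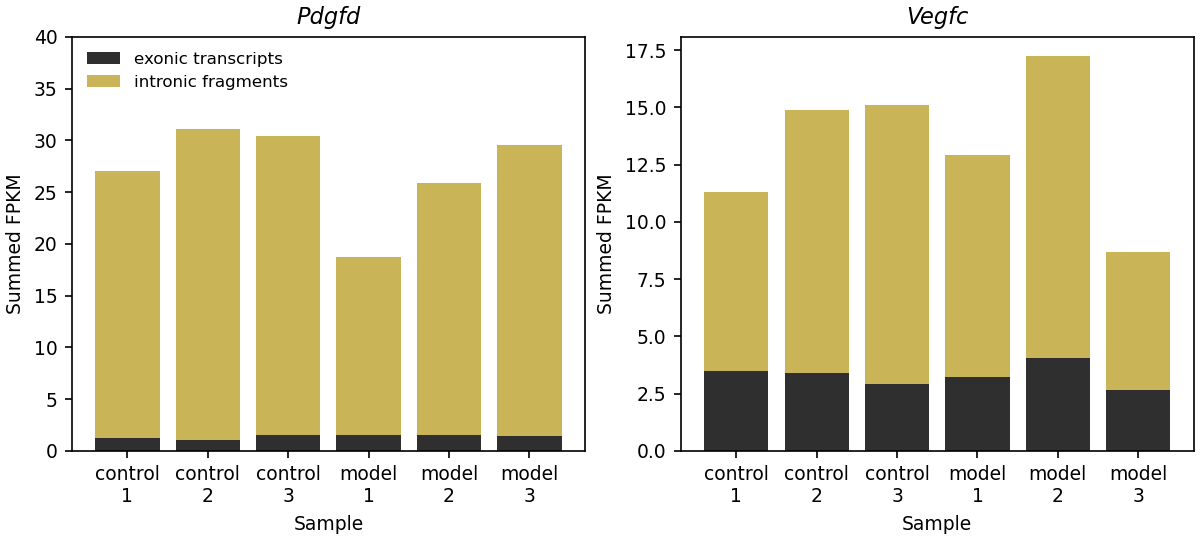
Summed FPKM of Pdgfd (left) and Vegfc (right) in each lung, divided into exonic transcripts (dark) and intronic pieces (light). Intronic pieces hold between 91.9% and 96.6% of the Pdgfd sum and between 69.1% and 80.6% of the Vegfc sum.

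The exonic FPKM of the 4 PDGF ligands summed to 22.9, 23.9 and 22.2 in control and 27.5, 24.1 and 24.4 in model lungs. In this exonic sum the model lungs lay above the controls, with model 2 above control 2 by a small margin. Among all single genes 10.7% did not overlap. By the plain sum over all transcripts, which includes the intronic pieces of Pdgfd, the groups of the 4 PDGF ligands overlapped. In exonic FPKM the 4 VEGF family ligands summed to 163, 144 and 131 in control and 156, 141 and 111 in model lungs. These groups overlapped.

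Pdgfra, on chromosome 14 from 35527927 to 35581031 on the minus strand, marks lung fibroblasts and was the higher of the receptors. Its FPKM was 23.5, 24.9 and 29.8 in control and 24.5, 22.4 and 27.9 in model lungs. Its log2 fold change was -0.06 (SE 0.12, adjusted p = 0.970). The annotated transcript ENSRNOT00000003077, with 23 exons, held 68.9% ± 2.66 of the exonic FPKM in control and 70.3% ± 1.20 in model lungs. The shorter MSTRG.11314.7, with 7 exons, held 17.2% ± 0.87 in control and 14.8% ± 1.37 in model lungs (SD, n = 3), and its shares did not overlap (exact permutation p = 0.1).

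Pdgfrb, on chromosome 18 from 56364620 to 56406381 on the plus strand, is the receptor of pericytes and smooth muscle. Its FPKM was 15.7, 15.5 and 15.1 in control and 19.1, 16.7 and 14.9 in model lungs. Model 1 and model 2 lay above the controls and model 3 below them. The log2 fold change was 0.12 (SE 0.10, adjusted p = 0.934). The ratio of Pdgfra to Pdgfrb was 1.55, 1.67 and 2.12 in control and 1.31, 1.43 and 1.97 in model lungs, which overlapped.

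The transcripts of Pdgfrb varied more than their sum. MSTRG.16844.4, with 22 exons and 4966 bases, had 1.31, 1.25 and 0.392 FPKM in control and 7.29, 5.49 and 1.70 in model lungs. It was called higher in model lungs, with a log2 fold change of 1.44 (SE 0.47, adjusted p = 0.945, limma), and its share of the exonic FPKM was 7.10% ± 3.55 in control and 30.7% ± 15.7 in model lungs (SD, n = 3, exact permutation p = 0.1). ENSRNOT00000078764 was called lower at low levels, with 0.372, 0.272 and 0.488 in control and 0.123, 0.121 and 0.233 in model lungs (log2 fold change -0.25, adjusted p = 0.945). ENSRNOT00000086033, with 23 exons, had 3.94, 3.68 and 3.57 in control and 1.5, 1.20 and 3.76 in model lungs. MSTRG.16844.2 had 2.0, 2.07 and 5.27 in control and 6.67, 5.03 and 1.75 in model lungs, and was thus high in model 1, model 2 and control 3. MSTRG.16844.5 went the other way, with 5.49, 5.52 and 3.02 in control and 1.66, 2.65 and 4.76 in model lungs. Model 3 resembled controls 1 and 2 in both of these.

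Across the 68 member transcripts tested, 3 were called, which is 4.41%, beside 2.98% of all 64867 transcripts. Of these 1 was higher and 2 were lower in model lungs, beside 1.22% and 1.76% of all. Groups did not overlap for 9, or 13.2%, beside 10.4% of all. Of these 5 were higher in model lungs, beside 4.12% of all, and 4 lower, beside 6.29%. None of the 68 had an adjusted p below 0.05, beside 0.0277% of all transcripts (limma). An unadjusted p of at most 0.05 was found for 5, or 7.35%, beside 4.53% of all. With 1 lung left out at a time, MSTRG.16844.4 stayed called in 3 of 6 fits, and was lost without control 3, model 1 or model 2, where its log2 fold change was between 1.11 and 1.29. MSTRG.3612.2 and ENSRNOT00000078764 stayed called in 2 of 6 fits each. MSTRG.3612.2 was kept only without control 1 or model 3, and ENSRNOT00000078764 only without control 2 or model 3. After rescaling to TPM neither was called, though the log2 fold changes were -0.78 for MSTRG.3612.2, whose ratio of means then missed the threshold at -0.96, and -0.37 for ENSRNOT00000078764, whose p then missed it. ENSRNOT00000078764 was also not called by limma without trend, at the same log2 fold change of -0.25. MSTRG.16844.4 was called in both. Of the 24 isoform shares of at least 10%, 5 did not overlap between groups, which is 20.8%, beside 9.82% of 22295 such shares over all genes, and shares of 1 gene depend on each other.

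No receptor of the VEGF ligands was called. Of Flt1, Kdr, Flt4, Nrp1 and Nrp2, 0 of 5 were called, 1 had an unadjusted p of at most 0.05, and the median log2 fold change was -0.00. That gene, the co-receptor Nrp1, had 86.4, 86.9 and 86.3 FPKM in control and 79.2, 71.4 and 77.3 in model lungs, all 3 below the controls (log2 fold change -0.19, SE 0.07, adjusted p = 0.934, limma). Kdr, the main signalling receptor of Vegfa, had 76.5, 73.3 and 77.2 in control and 77.7, 56.0 and 80.1 in model lungs, with model 2 the lowest. Of 5 angiopoietin and Tie genes, 0 were called and 0 had an unadjusted p of at most 0.05. Tek and Tie1, endothelial receptors, were the most abundant, at 61.6 ± 5.04 and 40.9 ± 5.02 in control and 60.0 ± 2.69 and 43.2 ± 4.26 in model lungs.

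Hypoxia induces Vegfa through the HIF factors, so their genes and other targets were tallied. Of 8 genes of hypoxia sensing, 0 were called and 1 had an unadjusted p of at most 0.05. Hif1a, the oxygen-regulated subunit, had 14.1, 13.8 and 14.5 FPKM in control and 12.1, 13 and 11.2 in model lungs (log2 fold change -0.21, SE 0.08, adjusted p = 0.934, limma). Epas1, which codes for the related subunit abundant in endothelium, was far higher, at 393 ± 82.8 in control and 375 ± 11.9 in model lungs. Of 10 hypoxia targets other than VEGF, 0 were called, 6 lay above 0 and 1, Ldha, had an unadjusted p of at most 0.05. Ldha, lactate dehydrogenase A, had 38.2, 37.2 and 36.3 in control and 44.5, 39.1 and 45.4 in model lungs (log2 fold change 0.20, SE 0.08, adjusted p = 0.934). The list summed to between 107.7 and 115.6 FPKM in control and between 117.8 and 130.3 in model lungs, which did not overlap. Among all single genes 10.7% did not overlap. Without Ldha the sums of the other targets overlapped. Ankrd37 (-0.34), Adm (-0.28), Bnip3 (-0.16) and P4ha1 (-0.01) lay below 0.

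Among 11 tested genes of a list of factors that process or bind these growth factors, to which the ligand Vegfd was added, 1 was called. Pdgfrl, which codes for a secreted protein resembling a PDGF receptor, had 2.94, 2.89 and 4.65 FPKM in control and 2.22, 1.59 and 1.31 in model lungs. It was called lower, with a log2 fold change of -0.72 (SE 0.21, adjusted p = 0.934, limma). The call was lost under 7 of 17 alternatives. Under TPM the log2 fold change was -0.77, and only the ratio of means missed the threshold, at -0.97. The others were weighting by length (-0.34), annotated or exonic transcripts only (-0.26 in both), and the fits without control 3 (-0.55), model 2 (-0.70) or model 3 (-0.62). Adamts12, a secreted metalloprotease, had 6.47 ± 0.73 in control and 4.67 ± 0.71 in model lungs (log2 fold change -0.40, SE 0.14, adjusted p = 0.934) and was not called. Of 19 tested genes of receptor signalling, 0 were called, 11 lay above 0 and 8 below, and Src and Rasa1 had an unadjusted p of at most 0.05. Src, a kinase recruited by both receptor families, had 6.09 ± 0.29 in control and 7.30 ± 0.27 in model lungs (adjusted p = 0.934). Rasa1, which switches off Ras, had 34.8 ± 3.73 and 25.1 ± 5.29 (adjusted p = 0.934). No gene of these lists had an adjusted p below 0.05.

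Markers of the cells that make or receive these factors were read in the same lungs. The alveolar type 2 markers, such as the surfactant gene Sftpc, summed to between 4595 and 6361 FPKM in control and between 5410 and 6981 in model lungs, and 8 of 8 lay above 0, with a median log2 fold change of 0.20 and 0 called. Endothelial markers overlapped, with 389 to 509 FPKM in control and 429 to 481 in model lungs, as did lymphatic markers (101 to 123 and 101 to 119) and those of pericytes and smooth muscle (170 to 209 and 162 to 244). The 10 fibroblast markers summed to 525 to 615 FPKM in control and 617 to 750 in model lungs, which did not overlap. Among all single genes 10.7% did not overlap. Of the 10 markers 8 lay above 0, Dcn (-0.13) and Lum (-0.10) lay below, and 0 were called. The collagen gene Col3a1 had 169 ± 13.1 in control and 208 ± 22.3 in model lungs (log2 fold change 0.30, SE 0.11, adjusted p = 0.934, limma). Without Col3a1 the sums of the other fibroblast markers overlapped. The part of these cells in the values of the 10 genes was not tested. Alveolar type 1, macrophage, platelet and red blood cell markers also overlapped between groups, with 0 called.

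Back-splice reads of circular RNAs from these genes were few. Of 5216 circRNAs deposited, 5 had a host among the 10 genes, with 6 reads in all. Pdgfb had 1 circRNA with 2 reads in control 1. Pdgfra had 2 circRNAs with 1 read each, in model 1 and model 3. Vegfc had 1 read in model 1 and Vegfa 1 read of an intronic circRNA in control 1. The other 6 genes had 0 reads. Taken 1 library at a time, 0 reads allow a mean of up to 3 at 95% confidence, where a library held between 2037 and 2964 back-splice reads. At this depth no difference between groups was detectable.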

How the data were processed

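Total RNA of 3 control and 3 model lungs was sequenced as paired reads of 150 bases. For linear RNAs the authors used Cutadapt for trimming, Bowtie2 and Tophat2 for mapping and StringTie for assembly, and they deposited FPKM and coverage, a signal not scaled for library size, per transcript. The submitters' processing notes name HISAT2, StringTie and TopHat. For circRNAs the authors deposited back-splice read counts from CIRCexplorer, and their scaled circRNA values were not used. The genome build is not given in the sources used here. The files' own coordinates are printed for genes, and GRCr8 only for promoters.

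FPKM were summed per gene name. Gene names with an annotated transcript, and all transcripts, were tested when FPKM was above 0 in at least 3 of 6 samples, with limma 3.58.1 (trend) in R 4.3.3 on log2(FPKM + 1), which understates changes of low genes. Fold changes are on that scale. P values are two-sided and adjusted by Benjamini-Hochberg over all genes or all transcripts tested. A call required p at most 0.05 before adjustment together with group means at least 1 apart on the log2 scale. Shares were compared by exact permutation over all 20 regroupings. Estimated reads are coverage times length divided by 150. Every column of the tables was assigned to a sample by its name. The scripts were tested on simulated data, in which 200 genes and 200 transcripts were raised by 2 on the log2 scale. Of these, 200 genes and 192 transcripts were called. The same rule also called 296 genes and 2235 transcripts that were left unchanged, beside 293 and 1934 called in the lungs.

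Each library is labelled as a separate sample, and p values measure the spread between these 3 samples a group. The members and gene lists were chosen with earlier results of these data known. Named were the 10 members, their transcripts that were called, and some of those that held at least 10% of a gene's FPKM in a group. Of the lists, all genes called or with an unadjusted p of at most 0.05 were named, with some others such as Kdr and Epas1. The remaining transcripts and genes are given as counts or sums. List names not matched here were Ccbe1, Figf, Plcg2, Pecam1, Cldn5, Marco, Itgam, Hba1, Hba2 and Hba-a1. Of the alternatives, the sum over exonic transcripts was added after seeing the data.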

Additional observations from a re-analysis of the deposited data

How the results depend on the processing

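No member was called under any alternative. Against 293 genes called, the count was 80 with a mean FPKM of at least 1 required and 519 with annotated transcripts only. Against 1934 transcripts called, the count was 1066 with a mean FPKM of at least 1, a filter that left Pgf out. Rescaling to TPM turned 132 genes higher and 161 lower into 194 and 138, and 794 transcripts higher and 1140 lower into 989 and 958, and moved the median of all genes from -0.01 to 0.05. Isoform shares that did not overlap numbered between 6 and 11 with 1 lung left out, against 5, with 11 without control 1, 9 without model 3 and 8 without model 1. Fewer lungs make such separation easier.

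The sign of the log2 fold change turned for Vegfb with weighting by length (0.068) and with annotated transcripts (0.067), for Vegfc with annotated and with exonic transcripts (0.0026 in both), for Pdgfd with both of these (0.12 in both), for Pdgfrb with annotated transcripts (-0.75, adjusted p = 0.972, limma), for Pdgfra with TPM (0.021), and for Pdgfc with TPM (0.0062), weighting (0.074) and an ordinary linear model on FPKM (0.0081). With 1 lung left out the log2 fold change lay between -0.22 and 0.040 for Vegfa, -0.34 and 0.12 for Vegfc, -0.030 and 0.21 for Pdgfb, -0.23 and 0.21 for Pdgfc, and -0.14 and 0.036 for Pdgfra. The sign held for the other genes, with -0.28 to -0.064 for Vegfb, 0.057 to 0.23 for Pgf, 0.086 to 0.34 for Pdgfa, -0.41 to -0.090 for Pdgfd and 0.028 to 0.20 for Pdgfrb. The cause was not tested.

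Samples with the same replicate number did not deviate together more than others. Their correlations over genes were 0.07, 0.03 and -0.07, beside -0.13 to 0.09 for different numbers. No pairing was seen, though 3 rats a group are too few to exclude it. With the replicate number as a block, 311 genes and 1943 transcripts and 0 members were called, and 0 genes had an adjusted p below 0.05, against 2. Low reads limit Pgf and Pdgfc the most, and the number of rats limits all tests.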

Other observations

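Vegfd and Furin are given as values, chosen after their values were seen. Vegfd, the remaining VEGF family ligand, had 2.37, 6.48 and 5.14 FPKM in control and 6.86, 5.44 and 0.721 in model lungs, a wide spread in both groups. Furin, a convertase that cleaves Vegfc and PDGF chains, had 0.0641, 5.13 and 2.96 FPKM in control and 6.49, 5.32 and 8.87 in model lungs, with control 1 near 0. Its log2 fold change was 1.39 (unadjusted p = 0.064, adjusted p = 0.934, limma), and it was not called. The groups did not overlap, and 4.86% of all genes were likewise apart with model lungs higher.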
